A study of Triticum aestivum with 6 samples.

Results

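Nitrite reductase and the methyltransferase that starts sirohaem synthesis were followed with and without nitrate in bread wheat roots (Triticum aestivum; the wild-type line JW1). The members were the genes whose best-matching UniProt text, in the authors' deposited table, named nitrite reductase or a methylase of uroporphyrin(ogen) III. There were 6 of them among 83219 genes. TraesCS6A02G333900, TraesCS6B02G364600 and TraesCS6D02G313100 matched the ferredoxin-nitrite reductase of rice. TraesCS3A02G227700, TraesCS3B02G256800 and TraesCS3D02G225500 matched the uroporphyrinogen-III C-methyltransferase of the red alga Cyanidium caldarium. The identifiers place each trio on the A, B and D copies of chromosome 6 or 3. That the genes of a trio are homoeologues, the corresponding copies of the subgenomes of hexaploid wheat, is read from this code and the shared match, not from an alignment.

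The 2N group was 3 root libraries from seedlings given potassium nitrate (KNO in the labels) at 2 mM for 3 hours, and the 0N group was 3 libraries from seedlings given potassium chloride at 2 mM instead. Seedlings of both groups had germinated for 3 days, had lost the endosperm, had grown for 3 days with nitrate and had then stood 2 days without nitrogen. Chloride thus changed together with nitrate, and their effects cannot be told apart. The labels do not say what a numbered replicate was (a plant, a pool or a culture), and the p-values reflect the variation between these libraries alone, which may be technical.

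Nitrite reductase works in the plastid, where it takes electrons from reduced ferredoxin and turns nitrite, the product of nitrate reductase, into ammonium. Its active site holds sirohaem, an iron tetrapyrrole that sulphite reductase also carries. Sirohaem branches from the haem and chlorophyll pathway at uroporphyrinogen III: the methyltransferase commits this precursor to the branch, the methylated product is oxidised to sirohydrochlorin, and sirohydrochlorin ferrochelatase inserts the iron. Nitrite is toxic when it builds up, and plant nitrite reductase genes are known to respond to nitrate.

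The libraries held 16208512 to 17645686 reads by the expected counts (17234970 to 17645686 in 2N, 16208512 to 16426366 in 0N). One label of every sample reads leaf tissue, while the others read root. Genes matching root markers (Casparian strip membrane protein, SHORT-ROOT, SCARECROW and cortical cell-delineating protein; 68 genes, 3 at 0 counts in every library) summed to 19475 to 23061 TPM in 2N and 13998 to 17945 TPM in 0N. TPM is the authors' measure of transcript level, corrected for gene length. Most of this root sum came from 49 matches to cortical cell-delineating protein, which together averaged 20426 TPM in 2N and 16446 TPM in 0N. Genes matching green leaf markers (Rubisco small subunit, chlorophyll a-b binding proteins, photosystem II 10 kDa protein and oxygen-evolving enhancers; 102 genes, 20 at 0) summed to 138 to 250.2 TPM in 2N and 252.2 to 562 TPM in 0N. Of 56 tested leaf markers 23 were lower in 2N and 0 higher, against 1 lower and 15 higher of 48 tested root markers. Over all tested genes 7.93% were lower and 7.57% higher, by the test given below. The part of these markers in the results was not tested.

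All 3 nitrite reductase genes were higher in 2N, 78.2-fold to 116-fold by the fitted fold change. All 3 methyltransferase genes were higher as well, 33.1-fold to 45.8-fold. Each of the 6 genes was tested and each passed the threshold, an adjusted p of 0.05 by edgeR's quasi-likelihood test over 54313 tested genes. Over all tested genes 7.57% were called higher in 2N and 7.93% lower (4109 and 4306 genes, against 2920 and 6208 with library totals as the scaling); 2622 genes were called higher without 0N replicate 1 and 2639 without 2N replicate 3. In each of the 6, the lowest 2N library stood above the highest 0N library, a pattern seen in 16.2% of all tested genes. The smallest gap between the groups was 25.7-fold in CPM (counts scaled by library size), in TraesCS3A02G227700.

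**Figure D1:**
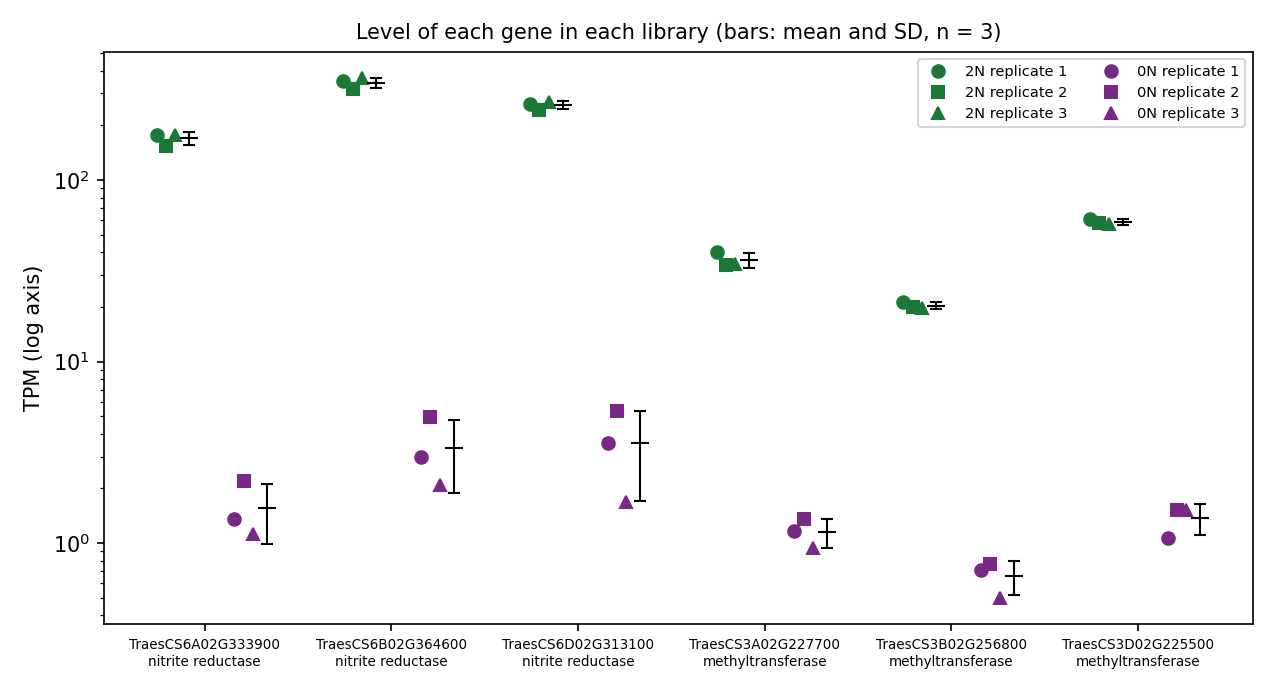
TPM on a log axis for each of the 6 genes in each library, 2N in green left of 0N in purple, one marker shape per replicate number, with the mean and SD (n = 3) beside each group. The 2N libraries lie from 19.8 to 363 TPM and the 0N libraries from 0.5 to 5.35 TPM, and the 0N points of the nitrite reductase genes are spread more widely than those of the methyltransferase genes.

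TraesCS6B02G364600, the nitrite reductase gene of highest level in 2N, had 349.5, 319 and 363 TPM in 2N replicates 1 to 3, against 3.00, 4.92 and 2.10 TPM in 0N replicates 1 to 3. The 2N libraries lay within a factor of 1.16 of each other in CPM and the 0N libraries within a factor of 2.45. Its log2 fold change was 6.78 ± 0.30 (SE, adjusted p = 1.1e-05, edgeR). By mean TPM it ranked 406 of all 83219 genes in 2N and 31583 in 0N.

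TraesCS6D02G313100 had 263, 243 and 270.4 TPM in 2N replicates 1 to 3, against 3.58, 5.35 and 1.69 TPM in 0N replicates 1 to 3. No 2N value came near the highest 0N value, but the 0N libraries differed by a factor of 3.29 in CPM, the widest range of the 6 genes. The log2 fold change was 6.29 ± 0.42 (SE, adjusted p = 0.00052, edgeR).

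TraesCS6A02G333900 had the lowest level of the nitrite reductase trio in 2N and the largest fold change. It had 177, 154 and 178 TPM in 2N replicates 1 to 3, against 1.36, 2.20 and 1.12 TPM in 0N replicates 1 to 3, and its log2 fold change was 6.86 ± 0.22 (SE, adjusted p = 1.3e-08, edgeR). The 3 log2 fold changes of the trio differed by less than 0.6, and their standard errors were 0.22 to 0.42. By size of fold change the trio held places 15, 18 and 27 among the tested genes, for 6A, 6B and 6D in that order.

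The sirohaem methyltransferase genes had lower levels than the nitrite reductase genes in every 2N library. TraesCS3D02G225500 had 60.8, 58.1 and 57.0 TPM in 2N replicates 1 to 3, against 1.07, 1.52 and 1.53 TPM in 0N replicates 1 to 3. The gap between the groups far exceeded the spread within either, and the log2 fold change was 5.52 ± 0.14 (SE, adjusted p = 8.7e-12, edgeR), the second smallest p of all tested genes.

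TraesCS3A02G227700 had 40.35, 33.9 and 34.3 TPM in 2N replicates 1 to 3, against 1.16, 1.35 and 0.94 TPM in 0N replicates 1 to 3. Its log2 fold change was 5.07 ± 0.15 (SE, adjusted p = 1.8e-11, edgeR). TraesCS3B02G256800, the least abundant of the trio per length, had 21.3, 19.9 and 19.8 TPM in 2N replicates 1 to 3, against 0.71, 0.77 and 0.50 TPM in 0N replicates 1 to 3. Its log2 fold change was 5.05 ± 0.14 (SE, adjusted p = 1.3e-11, edgeR). The standard errors of this trio were smaller than those of nitrite reductase, although its genes had fewer reads: 23.95 to 38 counts in the 0N libraries, against 43.9 to 189 for nitrite reductase.

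The 0N libraries differed more for nitrite reductase than for genes of like level. The coefficient of variation of CPM over the 3 0N libraries was 54.1% for the 6D gene, 46.0% for the 6B gene and 39.5% for the 6A gene. Among tested genes whose 0N mean was within a factor of 2 of theirs, the median was 10.6%, 11.2% and 13.6%, and a larger coefficient was found in 0.498%, 1.01% and 2.87%. In all 3 genes 0N replicate 2 was highest and 0N replicate 3 lowest, an order found in 17.2% of all tested genes; the genes share these libraries, so the 3 are not separate observations. The same order was found in 2 of the 3 methyltransferase genes, 3A and 3B. The methyltransferase genes had 0N coefficients of 20.3% to 23.3%, against medians of 17.2% to 17.5% at their level. In 2N the coefficient was 6.25% to 8.55% for nitrite reductase and 3.40% to 10.3% for the methyltransferase.

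Summed over its 3 genes, nitrite reductase had 28583, 26443 and 29289 reads in 2N replicates 1 to 3, against 263, 432 and 168 reads in 0N replicates 1 to 3. It thus took 0.150% to 0.170% of a 2N library and 0.00102% to 0.00264% of a 0N library. Over these 0N libraries the 95% Wilson intervals ran from 0.000879% to 0.00290%, and they cover counting error only. Its summed level averaged 772 ± 50.0 TPM in 2N and 8.44 ± 3.80 TPM in 0N (SD, n = 3 each), a 91.5-fold ratio of the means. The groups did not overlap (2-sided exact permutation p = 0.1, the smallest that 3 against 3 libraries allow). The methyltransferase genes together averaged 115 ± 6.34 TPM in 2N and 3.18 ± 0.40 TPM in 0N (SD, n = 3 each), a 36.2-fold ratio of the means (exact permutation p = 0.1).

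The rise was larger in these libraries for nitrite reductase than for the methyltransferase, though the test of the difference could not reach the threshold at this size. The summed TPM of nitrite reductase was 6.44, 6.40 and 7.30 times that of the methyltransferase in 2N replicates 1 to 3, against 2.70, 3.43 and 1.65 times in 0N replicates 1 to 3. Every 2N ratio lay above every 0N ratio, and the mean log2 ratio was 1.43 higher in 2N, a factor of 2.70 (2-sided exact permutation p = 0.1, the smallest possible). Without 0N replicate 3 the difference was 1.14, and without 0N replicate 2 it was 1.67. In bulk roots, more cells with a transcript and more transcript per cell cannot be told apart.

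**Figure D2:**
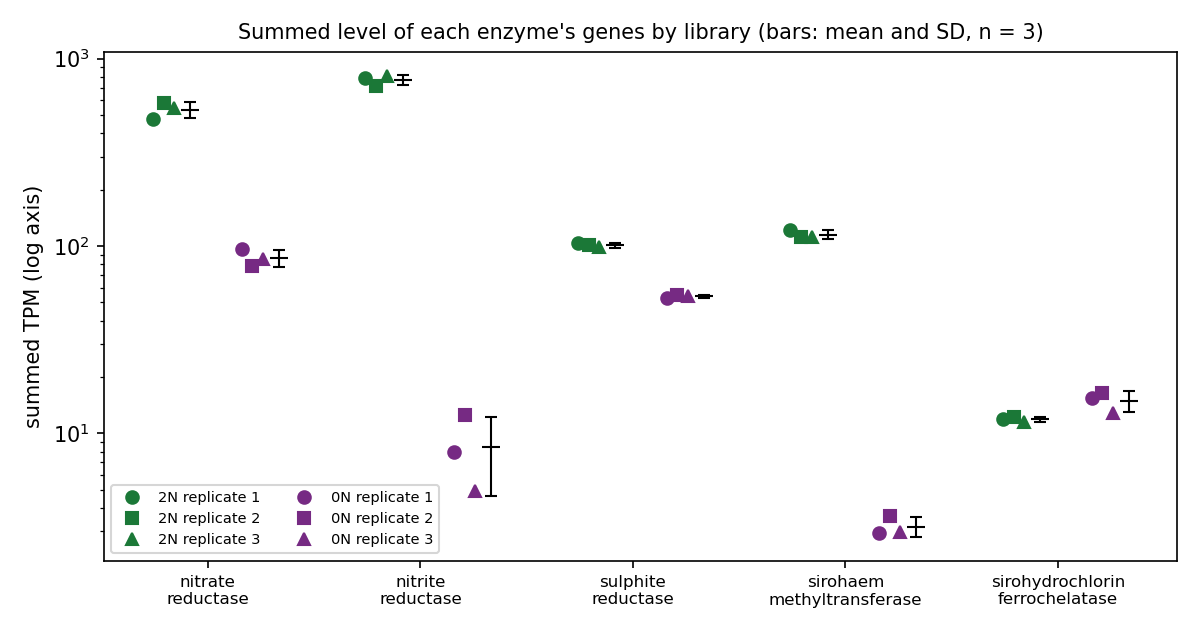
Summed TPM (log axis) of all genes of 5 enzymes in each library, 2N in green left of 0N in purple, with mean and SD (n = 3) beside each group. Nitrite reductase and the methyltransferase lie far apart between the groups, at means of 772 and 115 TPM in 2N against 8.44 and 3.18 TPM in 0N, while sirohydrochlorin ferrochelatase lies at 11.9 TPM in 2N and 14.9 TPM in 0N.

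The copies of a trio did not contribute equally to its TPM. In 2N the 6B gene made up 44.5% ± 0.24 of the nitrite reductase TPM, the 6D gene 33.5% ± 0.36 and the 6A gene 22.0% ± 0.43 (SD, n = 3). In 0N the 6D gene made up 40.8% ± 5.64, the 6B gene 40.0% ± 2.54 and the 6A gene 19.2% ± 3.14 (SD, n = 3). The share of the 6D gene was 33.3% to 33.9% in 2N and 34.4% to 45.1% in 0N, and that of the 6B gene 44.3% to 44.8% in 2N and 37.8% to 42.8% in 0N. Neither pair of ranges overlapped (difference -7.28 and 4.52 points, 2N minus 0N, 2-sided exact permutation p = 0.1 each, raw, over 6 shares compared); 0.1 is the smallest p possible, so after adjustment none could pass. The share of the 6A gene overlapped between the groups (exact permutation p = 0.4).

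The 0N shares rested on few reads. In 0N replicate 3, where the 3 nitrite reductase genes had 168 reads, the 6D gene held 35.1% of them with a 95% Wilson interval of 28.3% to 42.6%, which includes its 2N read shares of 34.0% to 34.7%. The corresponding intervals were 40.1% to 52.0% in 0N replicate 1 and 39.1% to 48.5% in 0N replicate 2, both above the 2N shares. Without 0N replicate 3 the difference of the 6D gene in TPM share was -10.5 points, and without 0N replicate 1 it was -5.14.

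Among the methyltransferase genes, the 3D gene held 51.0% ± 1.18 of the trio's TPM in 2N and 43.2% ± 7.67 in 0N. The 3A gene held 31.4% ± 1.40 in 2N and 36.1% ± 4.0 in 0N, and the 3B gene 17.7% ± 0.23 in 2N and 20.7% ± 3.68 in 0N (SD, n = 3 each). All 3 ranges overlapped between the groups (exact permutation p = 0.3, 0.2 and 0.4, raw). With 87 to 113 reads for the trio in a 0N library, the 95% Wilson intervals of single 0N read shares were wider than any of the differences, such as 32.7% to 53.0% for the 3D gene in 0N replicate 3. The difference of the 3D share was 7.73 points with all libraries, 11.9 points without 0N replicate 3 and 4.32 points without 0N replicate 1. That of the 3B share was -3.04 points with all libraries, -4.98 points without 0N replicate 3 and -1.33 points without 0N replicate 1. That of the 3A share was -4.69 points with all libraries and -2.99 points without 0N replicate 1. These are shares of TPM, which is corrected for gene length. In CPM, which is not, the 3A and 3B genes had like levels. Their means were 63.6 and 62.6 CPM in 2N and 1.89 and 1.88 CPM in 0N.

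Reads that match several copies may affect these shares, which was not tested. Counts of TraesCS3A02G227700 were whole numbers in all 6 libraries. Those of TraesCS6B02G364600 were whole in the 3 0N libraries (91, 155 and 65 in replicates 1 to 3) and not in 2N. The other 4 genes had no whole count (tolerance 1e-06). In 0N replicates 1 to 3 the 6A gene had 51.47, 87.55 and 43.94 counts and the 6D gene 120.53, 189.45 and 59.06. In each of these libraries the decimal parts of both genes add up to a whole number. The same holds for the 3B gene (33.03, 37.69 and 23.95) with the 3D gene (24.97, 37.31 and 37.05). Values that are not whole can arise when reads that match several copies are divided among them, and the values of single copies would then be less certain than the sums. In 0N this would concern the split between the 6A and 6D genes and that between the 3B and 3D genes, which was not tested.

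**Figure D3:**
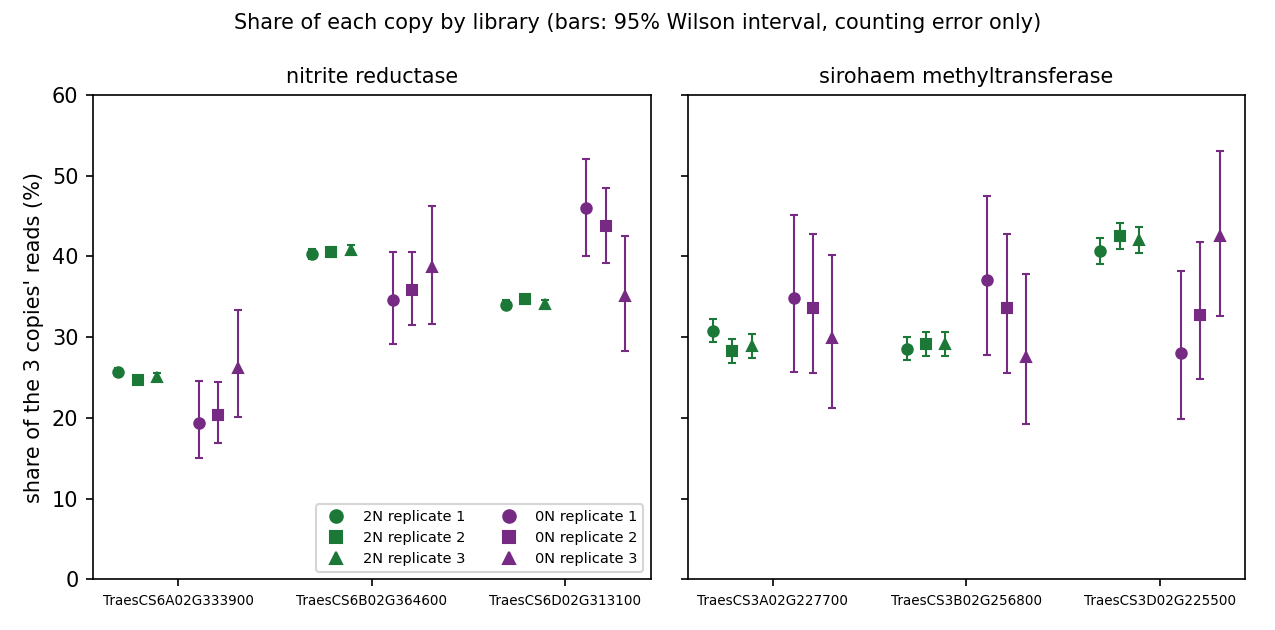
Share of each copy in the reads of its trio (percent) by library, 2N in green left of 0N in purple, with 95% Wilson intervals that cover counting error only. In 2N the shares of a copy nearly coincide between replicates; in 0N the intervals are wide, and the 6D share of replicate 3, at 35.1%, lies near the 2N values.

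Sulphite reductase, the other enzyme with sirohaem, had smaller fold changes. Its 3 genes were all called higher in 2N, where 7.57% of all tested genes were, with log2 fold changes of 0.89 to 1.10. TraesCS1D02G324200 rose by 1.10 ± 0.09 (SE, adjusted p = 1.0e-06, edgeR). TraesCS1B02G336300, the most abundant, averaged 38.5 ± 1.44 TPM in 2N and 22.4 ± 0.87 TPM in 0N (SD, n = 3 each). Set against it, nitrite reductase was 7.09 to 8.25 times the summed TPM of sulphite reductase in 2N and 0.0905 to 0.226 times in 0N. The methyltransferase was 1.11 to 1.18 times sulphite reductase in 2N and 0.0547 to 0.0661 times in 0N. Neither ratio overlapped between the groups (exact permutation p = 0.1 each).

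No gene of the last step of sirohaem synthesis passed the test. Of 7 genes that matched sirohydrochlorin ferrochelatase of Arabidopsis, 5 were tested, 0 rose and 0 fell. Over all tested genes 7.57% were higher and 7.93% lower, so a count of 0 among 5 genes is near these shares. The most abundant, TraesCS5B02G068700, had 5.03, 4.52 and 3.77 TPM in 2N replicates 1 to 3, against 6.03, 5.53 and 4.82 TPM in 0N replicates 1 to 3, and these ranges overlapped. Summed over all 7 genes, the ferrochelatase had 11.5 to 12.2 TPM in 2N and 12.8 to 16.4 TPM in 0N, ranges that did not overlap and were lower in 2N (exact permutation p = 0.1, the smallest possible). In CPM these sums were 9.49 to 10.07 in 2N and 10.10 to 12.78 in 0N, ranges that nearly met. The log2 fold change of TraesCS5B02G068700 was -0.20 ± 0.17 (SE, adjusted p = 0.52, edgeR), and those of the 5 tested genes ran from -0.52 to 0.00. The methyltransferase was 9.18 to 10.2 times the summed TPM of the ferrochelatase in 2N and 0.189 to 0.232 times in 0N, a mean log2 ratio 5.50 higher in 2N (exact permutation p = 0.1, the smallest possible). A p above the threshold does not show that the ferrochelatase transcripts were unchanged. The oxidation step between methyltransferase and ferrochelatase was not analysed here.

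The steps that make uroporphyrinogen III and the branch that competes for it were counted beside all tested genes, of which 7.57% were higher and 7.93% lower. Of 27 tested genes from glutamyl-tRNA reductase to uroporphyrinogen-III synthase, 0 rose and 0 fell. These include 3 matches to the glutamyl-tRNA reductase-binding protein, not to an enzyme. The median log2 fold change of the 27 genes was -0.05, beside 0.00 over all tested genes. TraesCS7D02G408000, the most abundant of them and a match to the enzyme that makes porphobilinogen, averaged 21.4 ± 1.09 TPM in 2N and 24.3 ± 0.25 TPM in 0N (SD, n = 3 each; log2 fold change -0.08 ± 0.09 SE). Of 38 tested genes of the haem and chlorophyll branch, 0 rose and 4 fell, with a median of -0.23. Those that fell matched protochlorophyllide reductase B (2 genes), ferrochelatase-2 and magnesium protoporphyrin IX methyltransferase, enzymes of chlorophyll or haem synthesis. TraesCS1B02G186300, a protochlorophyllide reductase match, fell by 0.99 on the log2 scale (SE 0.26, adjusted p = 0.016, edgeR). These calls were unstable: 0 genes of this branch fell without 0N replicate 1 or 2N replicate 1, 1 fell without 0N replicate 3 or 2N replicate 3, 7 fell without 2N replicate 2, 7 fell with library totals as the scaling, and 2 fell with the replicate number as a block. The green leaf markers were lower in 2N in the same libraries, as given above.

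Nitrate reductase, which supplies nitrite, was also higher in 2N. All 8 tested nitrate reductase genes rose, by 2.20 to 4.63 on the log2 scale (median 3.04), where 7.57% of all tested genes were higher. TraesCS6D02G020700, the most abundant, averaged 134 ± 16.0 TPM in 2N and 25.2 ± 0.65 TPM in 0N (SD, n = 3 each). TraesCS6A02G017500 rose by 3.94 ± 0.12 and TraesCS6A02G326200 by 4.51 ± 0.15 (SE, adjusted p = 3.5e-11 and 9.4e-11, edgeR). Summed nitrite reductase TPM was 1.23 to 1.65 times that of nitrate reductase in 2N and 0.0574 to 0.160 times in 0N, ranges that did not overlap (exact permutation p = 0.1). In 0N, the summed nitrate reductase genes had another order of libraries than nitrite reductase: their summed TPM was 96.2, 78.1 and 85.6 in 0N replicates 1 to 3, lowest where nitrite reductase was highest. Single genes differed in this: TraesCS6D02G306000 had 33.11, 24.22 and 26.85 TPM, but TraesCS6A02G017500 had 3.98, 5.15 and 4.44 TPM. By CPM, 1 of the 8 tested nitrate reductase genes had the full order of nitrite reductase, beside 17.2% of all tested genes.

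Electron donors rose in part. Of 14 tested ferredoxin genes 4 rose and 2 fell (median -0.32), where 7.57% of all tested genes were higher and 7.93% lower. All 3 tested matches to ferredoxin-6, in maize a ferredoxin of non-photosynthetic plastids that responds to nitrate, rose, among them TraesCS1A02G276300, which averaged 592 ± 68.1 TPM in 2N and 42.3 ± 1.49 TPM in 0N (SD, n = 3 each; log2 fold change 3.89 ± 0.12 SE, adjusted p = 2.7e-11, edgeR). Another, TraesCS1D02G275800, rose by 3.52 ± 0.12. The 2 that fell matched the wheat leaf-type ferredoxin, at 31.6 TPM in 2N and 56.2 TPM in 0N summed over its 6 genes. Falls in this list numbered 1 without 0N replicate 1 or without 0N replicate 3. Ferredoxin-NADP reductase, which passes electrons to ferredoxin in roots, had 3 rises and 0 falls among 7 tested genes, all 3 of them matches to the root isozyme. TraesCS5D02G431300 averaged 494 ± 48.0 TPM in 2N and 25.9 ± 0.81 TPM in 0N (SD, n = 3 each; log2 fold change 4.36 ± 0.12 SE), and TraesCS5A02G423000 rose by 3.78 ± 0.11. Among the reductases, falls numbered 1 without 2N replicate 3 or with library totals, and 2 without 0N replicate 2, without 2N replicate 2 or with no filter.

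Most genes of the enzymes that take up the ammonium made by nitrite reductase were higher in 2N. Of 11 tested glutamine synthetase genes 7 rose, 0 fell and 4 did not pass (median 1.35), where 7.57% of all tested genes were higher and 7.93% lower. Those that did not pass included TraesCS6B02G327500, with a mean of 341 TPM in 2N and 443 TPM in 0N, and TraesCS6A02G298100, with a mean of 190.2 TPM in 2N and 227 TPM in 0N; both were named after their values were seen. The 3 matches to the plastid form rose most, TraesCS2D02G500600 by 3.54 ± 0.11 and TraesCS2A02G500400 by 3.41 ± 0.10 (SE, adjusted p = 3.5e-11 and 2.7e-11, edgeR). The cytosolic TraesCS4B02G240900, the most abundant, averaged 987 ± 51.1 TPM in 2N and 417 ± 44.5 TPM in 0N (SD, n = 3 each). In this list 1 gene fell without 0N replicate 2 or with library totals. All 6 glutamate synthase genes rose (median 2.45), TraesCS3B02G299800 by 3.35 ± 0.11 and TraesCS3A02G266300 by 3.00 ± 0.12 (SE). None of these genes reached the log2 fold changes of the nitrite reductase trio, whose smallest was 6.29.

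**Figure D4:**
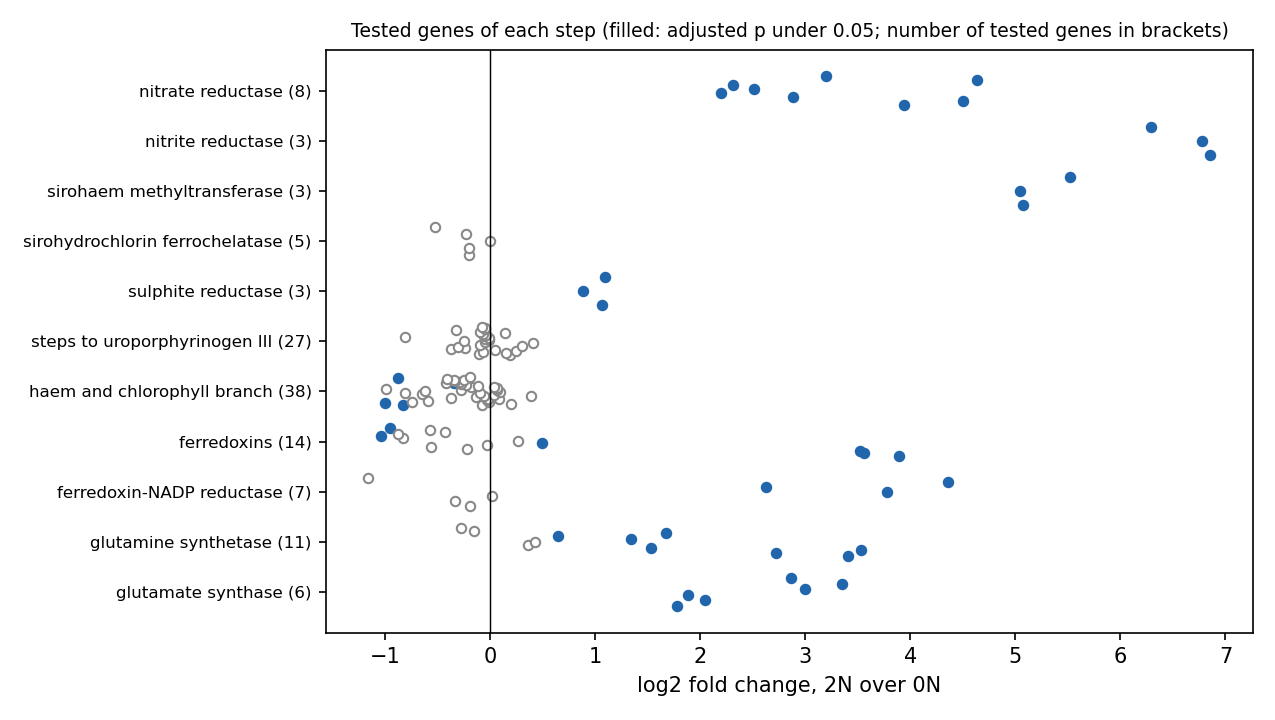
Log2 fold change, 2N over 0N, of every tested gene of each step (number tested in brackets); filled points passed an adjusted p of 0.05 by edgeR and open points did not. The nitrite reductase genes lie at 6.29 to 6.86 and the methyltransferase genes at 5.05 to 5.52, while the sirohydrochlorin ferrochelatase genes lie at -0.52 to 0.00.

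Genes of nitrate uptake were nearest to nitrite reductase in their pattern across the 6 libraries. Likeness was the root mean square difference of log2 CPM from the trio's mean profile, both set relative to their 0N mean, over 25422 tested genes that are no members, have a mean of at least 5 CPM and carry an informative name. For nitrite reductase the nearest was TraesCS4A02G367300, a match to NAR2.1, the partner protein of high-affinity nitrate transporters, at a difference of 0.27. It averaged 729 TPM in 2N and 8.47 TPM in 0N. The next 4, at 0.41 to 0.46, all matched the high-affinity nitrate transporter NRT2.1 (TraesCS6A02G031200, TraesCS6D02G035600, TraesCS6B02G044400 and TraesCS6D02G035900). The trio's own genes lay within 0.25 of their mean.

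For the methyltransferase the nearest was another NAR2.1 match, TraesCS5D02G506100, at a difference of 0.19, with 943 TPM in 2N and 26.8 TPM in 0N. It was followed by TraesCS1A02G357200, which matched the plastid 6-phosphogluconate dehydrogenase 2 of the oxidative pentose phosphate pathway (0.21), and TraesCS1D02G340600, a non-symbiotic haemoglobin match (0.22). Matches to LBD39, which in Arabidopsis represses genes that respond to nitrogen, came next (TraesCS4A02G236200 at 0.24 and TraesCS4D02G077600 at 0.40). The methyltransferase trio's own genes lay within 0.28 of their mean, a range that holds all of these named genes except TraesCS4D02G077600. The mean profiles of nitrite reductase and the methyltransferase differed by 1.14. The measure is dominated by the difference between the groups, and with 3 libraries each it says little about likeness within a group.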

How the data were processed

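The authors deposited a table of 83219 genes with expected counts (estimated reads per gene, not normalized; 45.1% of values not whole) and TPM values that sum to the same total in every library, per the file headers and column sums. Libraries were random-primed from poly(A) RNA, per the labels' protocols; HISAT and Bowtie2 are named in the submitters' processing notes. Not given in the sources used here are the genome build, the annotation, the counting program and whether strand was kept, so an overlapping gene on the other strand could add reads. Names are best protein matches. Of these identifiers 0 were found in the RefSeq table (assembly IWGSC CS RefSeq v2.1), and coordinates and sequences are not printed.

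Expected counts were rounded and filtered by filterByExpr (minimum count 10, minimum total 15), which left 54313 of 78333 genes with counts, and scaled by TMM. The test was edgeR's quasi-likelihood test (robust, 2-sided), Benjamini-Hochberg adjusted over every tested gene. Standard errors, from the fold change and the F statistic, are approximate. CPM uses TMM-scaled library sizes. Summed levels, shares and ratios were compared by exact permutation tests over libraries. The fit was tested on simulated data.

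The members and lists were chosen with earlier results of these data known. Lists were search expressions on the protein names; mismatched names were removed from 4 of them after the names, but not the fits, were read. Named genes were all members, the 2 smallest p past the threshold and the highest mean TPM in each list, and 5 genes of likest pattern per trio; names of the 4 genes of the haem and chlorophyll branch that fell were added after their values were seen. Alternatives were library totals, DESeq2, no and stricter filters (minimum count 50), limma-trend on log2(TPM + 0.5 or 0.1), each library left out, and the replicate number as a block. Versions were R 4.3.3, edgeR 4.0.16, DESeq2 1.42.0, limma 3.58.1, SciPy 1.17.1 and matplotlib 3.10.9.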

Additional observations from a re-analysis of the deposited data

How the results depend on the processing

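All 6 members kept their direction and their call under each of the 13 alternative fits. The log2 fold changes ran from 5.93 to 7.21 for the nitrite reductase genes and from 4.17 to 5.60 for the methyltransferase genes, and the largest adjusted p was 0.0108, for TraesCS6D02G313100 without 0N replicate 1. The summed levels, their ratio and the copy shares kept their direction under CPM or TPM and without each library, where an exact p could not go below 0.2.

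Over all genes, 4109 rises became 2477 and 2445 with limma on TPM (pseudocounts 0.5 and 0.1) and 2622 to 4285 without 1 library (2622 without 0N replicate 1, 2639 without 2N replicate 3), the cause not being tested. Library totals gave 2920 rises and 6208 falls, with a median log2 fold change over all tested genes of -0.09 in place of 0.00. The 6 falls in the pathway lists became 12 with library totals and 1 to 11 without 1 library (1 without 0N replicate 1, 2 without 0N replicate 3 or 2N replicate 1, 10 without 0N replicate 2, 11 without 2N replicate 2); the 31 rises ran from 30 to 32.

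Libraries of equal replicate number showed no strong likeness: deviations from the group means correlated at -0.01, -0.11 and 0.03 for numbers 1, 2 and 3. With 3 libraries per group, this check cannot show whether equal numbers were grown or prepared together. With the replicate block there were 3454 rises and 3845 falls over all genes, and all members passed; falls in the haem and chlorophyll branch numbered 2 in place of 4. Depth limits the 0N copy shares, which rest on 87 to 432 reads a trio.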
